A study of Mus musculus with 4 samples.

Results

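The BCL2 family decides whether a damaged cell opens its mitochondria and dies. Signal of 10 of its genes was measured in fibroblasts cultured from mouse embryos, with Affymetrix arrays that cover the mouse genome. The genes were taken by platform gene symbol: the BH3-only genes Bbc3, Pmaip1, Bcl2l11, Bid and Bad, the effectors Bak1 and Bok, and the anti-death genes Bcl2, Bcl2l1 and Mcl1. They are 10 of 18193 symbols on the array and have 30 probe sets, each of which was kept separate. Of these, 27 passed the filter on dim signal, a mean over the 4 arrays of at least 67.98. The other 3, from Bcl2 and Bcl2l1, had means of 18.1 to 52.4. The 4 groups, with 1 array each, were Wip1+/+ cells at 0 h without radiation, Wip1+/+ cells 4 h after 5 Gy of gamma radiation, and cells labelled Wip1-/- in the same 2 states. Wip1, the product of Ppm1d, is a phosphatase that dampens p53 signalling after DNA damage. The sources used here do not give how the mutant allele was made, nor the number of embryos or cultures behind each array. No array holds unirradiated cells at 4 h, so radiation and 4 h of culture cannot be told apart. With 1 array per group there is no test, and the spread between cultures is unknown. All values below are signal intensity or log2 ratios of it.

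As background, members of this family bind one another on the outer mitochondrial membrane. Bak, and in some settings Bok, form pores that release cytochrome c, while Bcl-2, Bcl-xL and Mcl-1 hold them back. BH3-only proteins such as Puma, Noxa, Bim, Bid and Bad carry the death signal by occupying the anti-death members or by engaging the pore formers. In fibroblasts exposed to radiation, p53 is known to activate Bbc3 and Pmaip1.

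The 4 arrays were not alike in quality. Over 18 spike-in control probe sets, the SD of the log2 ratio was 0.44 to 0.47 in the 3 pairs with the unirradiated array labelled Wip1-/-, and 0.07 to 0.10 in the 3 pairs without it. The irradiation ratio with the mutant label and the unirradiated genotype ratio both rest on that array. As error, the spread (SD) among probe sets of 1 gene in their log2 ratio was taken, which covers probes and not cultures. It was 0.37 over 5278 genes for irradiation of Wip1+/+ cells and 0.41 for the irradiated genotypes, against 0.62 and 0.65 in the comparisons with that array. Ppm1d signal does not bear out the genotype label: its brighter probe set read 375 at 0 h and 364 at 4 h in Wip1+/+ cells, and 504 and 482 with the mutant label. Its other probe set read 317 and 463, then 219 and 561. Which part of the gene the allele removes is unknown here, so the arrays are called by their label. All 10 fibroblast markers, among them Vim and Col1a1, passed the filter on dim signal, and 8 of 10 macrophage, 3 of 6 epithelial and 3 of 5 endothelial markers did too. The defining Cdh1 of epithelium read 1.7 to 55.3 and Pecam1 of endothelium 5.7 to 15.0, while Krt18 of epithelium read 552 to 842 and Emcn of endothelium 58.5 to 266.5.

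Bbc3 had the highest irradiation ratio of the 12 BH3-only probe sets in both genotypes. It encodes Puma, which binds all the main anti-death members. Its single probe set read 348 and then 584 in Wip1+/+ cells, and 228 and then 522 in cells labelled Wip1-/-. Both irradiated arrays read above both unirradiated ones. Signal was 1.68-fold higher after irradiation in Wip1+/+ cells and 2.29-fold higher with the mutant label, log2 ratios of 0.74 and 1.19. Among probe sets with a mean signal of 200 to 500, as Bbc3 has, 5.41% were at least 1.5-fold higher in the first comparison and 18.1% in the second. The second ratio started from the array whose spike-ins stood apart, which read lowest for Bbc3. The irradiated array labelled Wip1-/- read 1.16-fold above the geometric mean of both Wip1+/+ arrays, a mean that takes in the unirradiated one. Against the irradiated Wip1+/+ array alone it read 1.12-fold lower.

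Because Bbc3 was higher after irradiation in both genotypes, its promoter is shown, and that of Mcl1, an anti-death gene with 5 of 6 probe sets higher after irradiation in each genotype, is shown for contrast. The sequences are RefSeq windows of GRCm38.p6, from 250 bases before to 50 after a start, on the + strand. Bbc3 lies on chromosome 7 (16308398 to 16318334) and has 3 such windows, of which the most upstream, chr7:16309333-16309632, is printed. Mcl1 lies on chromosome 3 (95656944 to 95663179), with the window chr3:95658471-95658770. Capitals mark TGACG on either strand, the core bound by the CREB and ATF family.
Bbc3: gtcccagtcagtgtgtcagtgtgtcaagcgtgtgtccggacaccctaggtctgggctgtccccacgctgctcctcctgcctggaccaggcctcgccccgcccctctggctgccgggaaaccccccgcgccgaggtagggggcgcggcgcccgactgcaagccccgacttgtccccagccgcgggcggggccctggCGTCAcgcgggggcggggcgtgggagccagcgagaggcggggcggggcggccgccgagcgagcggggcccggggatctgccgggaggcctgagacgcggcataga
Mcl1: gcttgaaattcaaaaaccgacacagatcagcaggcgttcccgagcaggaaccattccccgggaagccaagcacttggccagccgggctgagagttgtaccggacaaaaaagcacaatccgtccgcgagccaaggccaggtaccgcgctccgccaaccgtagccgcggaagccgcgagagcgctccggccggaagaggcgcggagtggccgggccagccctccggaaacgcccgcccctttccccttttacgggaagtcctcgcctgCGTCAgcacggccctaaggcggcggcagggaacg
Each of the 2 printed windows holds TGACG 1 time, beginning at -55 in Bbc3 and at 17 in Mcl1, both read on the opposite strand. Of 32851 promoter windows in the table, 20.8% hold it, and among the 15 windows of 9 members here it occurs in 3, the third being that of Bcl2. The GC box core GGGCGG, on either strand, occurs 5 times in the Bbc3 window, overlaps counted, and 1 time in that of Mcl1, and 35.7% of all windows hold it. The p53 decamer, 1 arm of the consensus site, was searched as RRRCWWGYYY (R is A or G, W is A or T, Y is C or T). An exact match was in none of the 15 windows, against 8.36% of all windows. Arms with a mismatch were not counted, so a window without a match, such as that of Bbc3, may still hold a p53 site. Pmaip1 was left out of the member windows and so was not searched, and 15 windows are too few to show that the family lacks the decamer. These letters are a description of windows of 300 bases. GC content was 76.0% in the printed Bbc3 window and 65.7% in that of Mcl1.

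**Figure D1:**
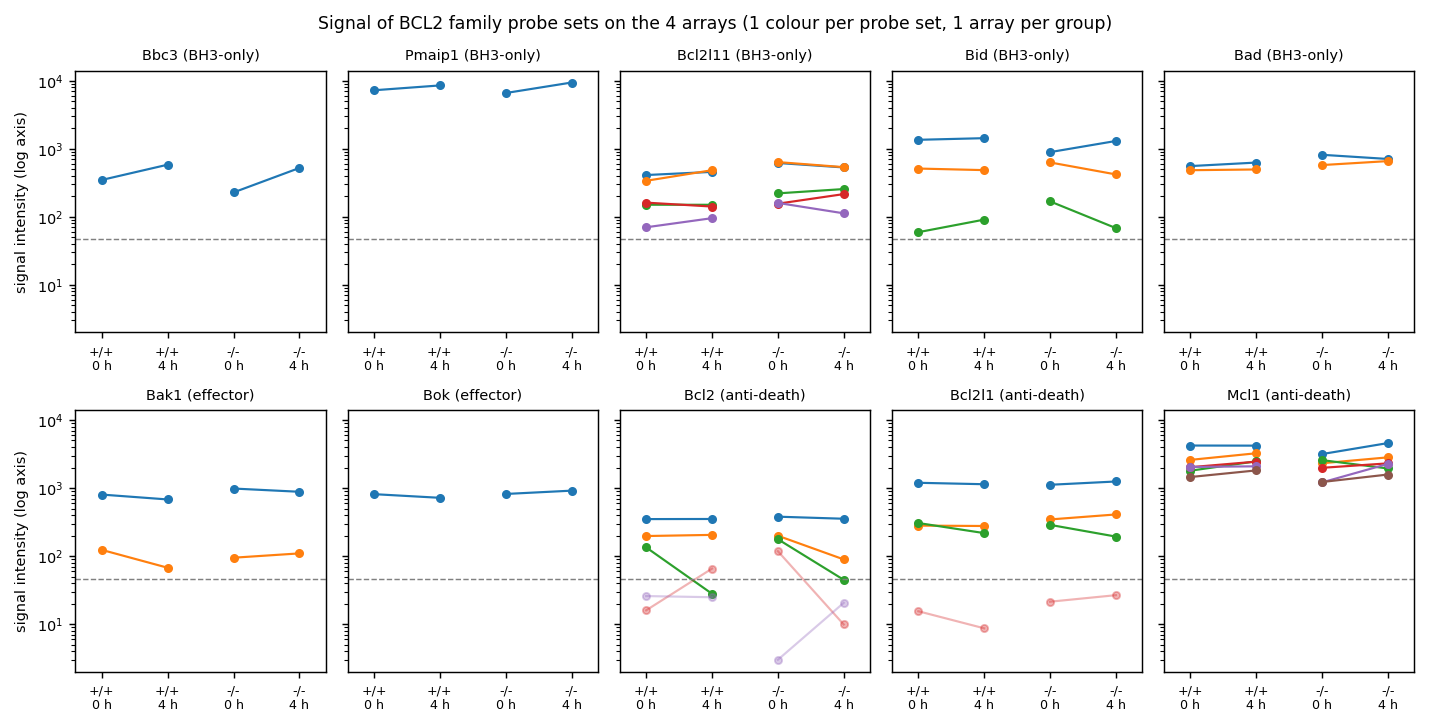
Signal intensity (log axis) of the 30 probe sets of the 10 genes on each of the 4 arrays, with 1 colour per probe set within a panel and lines joining the 0 h and 4 h arrays of a genotype label. Pale lines are probe sets under the filter, and the dashed line is the floor of 46.5. Bbc3 is higher at 4 h on both lines (348 to 584 and 228 to 522), while the brightest Bcl2 probe set stays between 350 and 380 on all 4 arrays.

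Pmaip1 encodes Noxa, which mainly binds Mcl-1. It was bright before any radiation, at 7236 in Wip1+/+ cells and 6592 with the mutant label, and read 8522 and 9403 afterwards. Both irradiated arrays again read above both unirradiated ones, by less than for Bbc3. The ratios were 1.18-fold in Wip1+/+ cells and 1.43-fold with the mutant label. At a mean signal of 2000 or more, 0.262% of probe sets were at least 1.5-fold higher in Wip1+/+ cells and 13.6% with the mutant label. Pmaip1 was under that fold in both.

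Bcl2l11 encodes Bim, a BH3-only protein that can also engage the pore formers directly. Its 5 probe sets gave no common response to irradiation: 3 were higher and 2 lower in Wip1+/+ cells, and 2 were higher and 3 lower with the mutant label. One of the lower in Wip1+/+ cells, 1435449_at, was nearly level, at 151 and 150.3, and read 221 and 256 with the mutant label. The mean log2 ratios were 0.18 ± 0.30 and -0.06 ± 0.39 (SD, n = 5 probe sets). The brightest, 1435448_at, read 411 and 458 in Wip1+/+ cells and 618 and 532 with the mutant label. Next, 1456005_a_at read 338 and 484, then 637 and 537. In both of these the irradiation ratio turned from above to below 1 between genotype labels, and both read highest on the unirradiated array with the mutant label.

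Between genotype labels most Bcl2l11 probe sets were higher with the mutant label. After irradiation all 5 probe sets were higher on the array labelled Wip1-/-, with a mean log2 ratio of 0.40 ± 0.27 (SD, n = 5 probe sets) and a range of 0.15 to 0.77. Without radiation 4 of 5 were higher, with a mean of 0.64 ± 0.47. The dimmest, 1456006_at, read 70.2 and 95.6 in Wip1+/+ cells and 160 and 113 with the mutant label. Leaving out the unirradiated array with the mutant label and setting the irradiated one against the mean of both Wip1+/+ arrays gave 5 of 5 above 0, from 0.29 to 0.77. This ratio reuses both irradiated arrays and adds the unirradiated Wip1+/+ one, so it is not a separate check of the irradiated comparison. The 5 probe sets share the same RNA on each array and are not replicates of a genotype.

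Bid encodes a BH3-only protein cut by caspase-8. Its brightest probe set, 1417045_at, read 1354.5 and 1431.5 in Wip1+/+ cells and 892.5 and 1302 with the mutant label. Only the unirradiated array with the mutant label stood low. Its second, 1448560_at, read 512 and 486, then 630 and 420. Its dimmest, 1447873_x_at, read 59.5 and 91.0, then 169 and 68.3. This last probe set was 1.53-fold higher after irradiation in Wip1+/+ cells and 2.47-fold lower with the mutant label, so that the probe sets of Bid disagreed in direction in both genotypes. After irradiation all 3 were lower on the array labelled Wip1-/-, with log2 ratios of -0.41 to -0.14.

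Bad encodes a BH3-only protein that survival kinases hold inactive by phosphorylation. Probe set 1416582_a_at read 557 and 627 in Wip1+/+ cells and 815 and 708 with the mutant label, and 1416583_at read 484 and 496.5, then 576 and 659. Both read higher with the mutant label in each state, by 1.46-fold and 1.19-fold without radiation and by 1.13-fold and 1.33-fold after it. With the values as deposited, no ratio of Bad reached 1.5-fold in the 4 comparisons.

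Of the effectors, Bak1 encodes Bak, a pore former that sits on mitochondria in healthy cells. Its brighter probe set, 1418991_at, read 802 and 680 in Wip1+/+ cells and 984.5 and 882 with the mutant label, so it was lower after irradiation in both, by 1.18-fold and 1.12-fold. The dimmer, 1425716_s_at, read 123.5 and 67.5, then 94.8 and 110. It was 1.83-fold lower in Wip1+/+ cells and 1.16-fold higher with the mutant label. Among probe sets with a mean under 200, 17.9% were at least 1.5-fold lower in Wip1+/+ cells. Bok, a relative of Bak, read 814 and 719, then 819 and 916. Both effectors were higher on the irradiated array with the mutant label, with log2 ratios of 0.37 and 0.70 for Bak1 and 0.35 for Bok.

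Bcl2 encodes the founding anti-death member. Its 5 probe sets disagreed. The brightest, 1457687_at, read 350, 351, 380 and 354 on the Wip1+/+ arrays at 0 and 4 h and those with the mutant label at 0 and 4 h, a highest over lowest ratio of 1.09. Probe set 1437122_at read 197 and 205 in Wip1+/+ cells but 199 and 89.5 with the mutant label, which is 2.23-fold lower. Probe set 1422938_at read 134 and then 28.0, and 177 and then 44.9. Both irradiated arrays were under the floor of 46.5 and both unirradiated ones above it, so signal was at least 2.89-fold lower in Wip1+/+ cells and at least 3.81-fold lower with the mutant label. Of the 2 under the filter, 1440770_at read 3.0 to 25.9 and 1443837_x_at read 9.9 to 118. The lower values of Bcl2 after irradiation thus came from probe sets with means under 200, and the brightest was level.

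Bcl2l1 encodes Bcl-xL and, by splicing, a shorter pro-death form, which these data do not separate. Its brightest probe set, 1420888_at, read 1196 and 1139 in Wip1+/+ cells and 1118 and 1249 with the mutant label. Probe set 1420887_a_at read 281 and 277, then 346 and 410. Probe set 1426191_a_at read 306.5 and 218, then 288 and 194, and was lower after irradiation in both, by 1.41-fold and 1.49-fold. The fourth, 1426050_at, read 8.7 to 26.7, under the floor on every array. With the values as deposited, no ratio of Bcl2l1 reached 1.5-fold.

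Mcl1 encodes a short-lived anti-death member, and all 6 of its probe sets passed the filter, with means of 1521 to 4042. After irradiation 5 of 6 were higher in Wip1+/+ cells and 5 of 6 with the mutant label, with mean log2 ratios of 0.23 ± 0.18 and 0.32 ± 0.43 (SD, n = 6 probe sets). The brightest, 1448503_at, read 4217 and 4201, then 3162.5 and 4586. Probe set 1416881_at read 2043 and 2089, then 1213 and 2268, and at 1.87-fold was the only 1 of the 6 past 1.5-fold. This ratio rested on the low signal of the unirradiated array with the mutant label, since its other 3 signals lay between 2043 and 2268. Probe set 1416880_at went the other way there, at 2572, and read 1801 and 2473.5 in Wip1+/+ cells and 1940 after irradiation with the mutant label.

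The 3 Mcl1 probe sets whose names end in _x_at, which marks probes that can cross-hybridize, gave like ratios in both genotypes. Their log2 ratios were 0.32, 0.27 and 0.32 in Wip1+/+ cells, and 0.29, 0.22 and 0.36 with the mutant label. The first of them, 1437527_x_at, read 2596 and 3248, then 2317 and 2828. The second, 1456243_x_at, read 2027 and 2446, then 1985 and 2308. The third, 1456381_x_at, read 1454 and 1818.5, then 1228.5 and 1582. All 3 read higher after irradiation in both genotypes. The other 3 Mcl1 probe sets ranged from -0.01 to 0.46 in Wip1+/+ cells and from -0.41 to 0.90 with the mutant label.

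**Figure D2:**
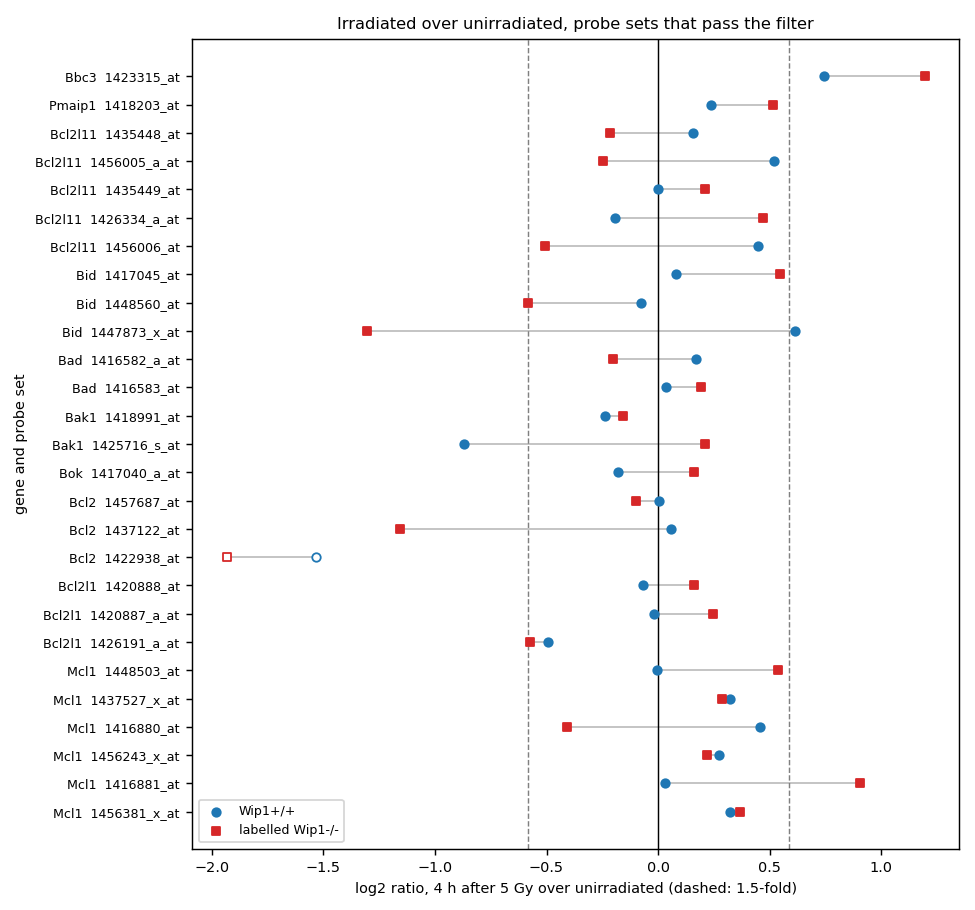
Log2 ratio of signal 4 h after 5 Gy over unirradiated for each of the 27 probe sets that pass the filter, with blue circles for Wip1+/+ and red squares for cells labelled Wip1-/-. Open symbols are bounds, where an array was under the floor, and dashed lines mark 1.5-fold. Bbc3 lies past the upper line in both (0.74 and 1.19) and Bcl2 1422938_at past the lower line in both.

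Bbc3 and probe sets of Bid, Bak1, Bcl2 and Mcl1 made up the family's irradiation ratios of 1.5-fold or more. In Wip1+/+ cells 4 of 27 probe sets (14.8%) were at least 1.5-fold apart, against 12.5% of all 20323 that passed the filter. These were Bbc3 and Bid 1447873_x_at, higher, and Bak1 1425716_s_at and Bcl2 1422938_at, lower, and the last 3 had means under 200. The median log2 ratio was 0.04, against 0.00 for all. With the mutant label 5 of 27 (18.5%) passed that fold, against 32.3% of all. These were Bbc3 and Mcl1 1416881_at, higher, and Bid 1447873_x_at and 2 of Bcl2, lower, with a median of 0.16 against -0.01 for all. With the arrays scaled to the median of the brighter probe sets, 2 were higher and 6 lower. Under it the calls over all probe sets went from 3458 higher and 3109 lower to 2902 higher and 3878 lower.

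By role, the 12 BH3-only probe sets had a median of 0.16 in Wip1+/+ cells, the 3 of the effectors -0.24 and the 12 of the anti-death genes 0.02. With the mutant label these were 0.00, 0.16 and 0.19. The medians are over probe sets, of which Bcl2l11 gave 5 of the BH3-only and Mcl1 6 of the anti-death. All lie within the SD between probe sets of 1 gene, 0.37 in Wip1+/+ cells and 0.62 with the mutant label. The 2 irradiation comparisons share no array. Across them, 12 of 27 probe sets (44.4%) went the same way, 8 higher and 4 lower, against 52.8% of all probe sets. Bbc3 was the only member at least 1.5-fold higher in both, and Bcl2 1422938_at the only 1 lower in both, among the 27. Over all probe sets 1.46% were at least 1.5-fold higher in both and 1.95% lower in both, against 3.70% of the family each.

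**Figure D3:**
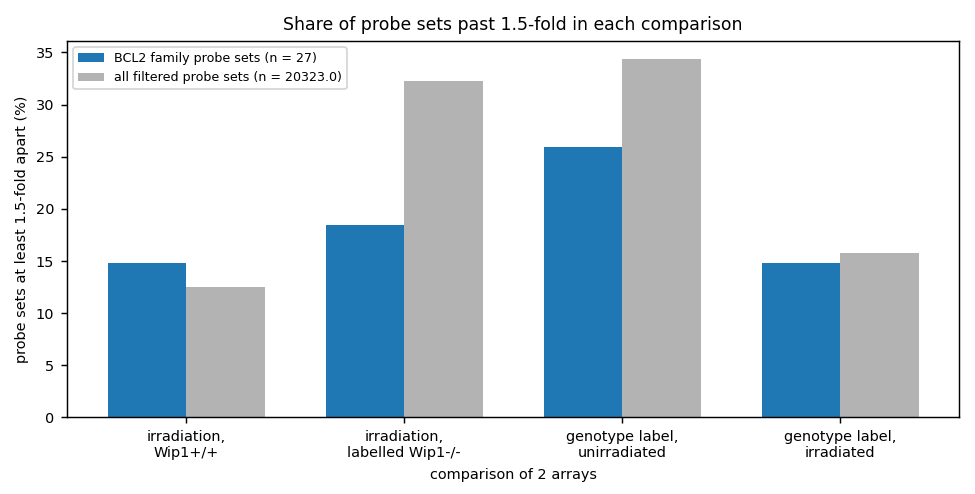
Share of probe sets at least 1.5-fold apart in each of 4 comparisons of 2 arrays, for the 27 BCL2 family probe sets (blue) and for all 20323 filtered probe sets (grey). The family's share is 14.8%, 18.5%, 25.9% and 14.8% from left to right, against 12.5%, 32.3%, 34.4% and 15.8% for all.

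Between genotype labels without radiation, 4 of 5 Bcl2l11 probe sets were higher on the mutant array while Bbc3 was lower. This comparison rests on the array whose spike-ins stood apart. The Bbc3 log2 ratio of -0.61 lay within the SD of 0.65 between probe sets of 1 gene. Of 27 probe sets 7 (25.9%) were at least 1.5-fold apart, against 34.4% of all. The 4 higher were 3 of Bcl2l11 and Bid 1447873_x_at, and the 3 lower were Bbc3, Bid 1417045_at and Mcl1 1416881_at. Under the scaling to the brighter probe sets 6 were higher and 1 was lower, Mcl1 1416881_at, as Bbc3 and Bid 1417045_at then missed 1.5-fold. Over all probe sets that scaling took the calls from 3350 higher and 3640 lower to 3979 higher and 3178 lower. Bbc3 was 1.53-fold lower on the array labelled Wip1-/-, close to the 1.52-fold of Bid 1417045_at. Of the 6 Mcl1 probe sets 5 were lower and 1 higher, with a mean log2 ratio of -0.18 ± 0.42 (SD, n = 6 probe sets) and a range of -0.75 to 0.51.

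After irradiation fewer probe sets were at least 1.5-fold apart between genotype labels, in the family and over all probe sets. Over all, the share was 15.8% against 34.4% without radiation, and in the family 14.8% against 25.9%. The unirradiated shares rest on the array whose spike-ins stood apart. Bcl2l11 was at least 1.5-fold higher with 2 probe sets and Bak1 with 1, while Bcl2 1437122_at was 2.29-fold lower. These were 4 of 27 (14.8%), against 15.8% of all, and all 4 had means under 200, where 35.3% of all passed that fold. Bbc3 was 1.12-fold lower and Pmaip1 1.10-fold higher on the array labelled Wip1-/-. The median log2 ratio of the 12 BH3-only probe sets was 0.16, that of the 3 effector probe sets 0.37 and that of the 12 anti-death probe sets -0.04. These medians lie within the SD of 0.41 between probe sets of 1 gene. Across the 2 genotype comparisons, which share no array, 16 of 27 probe sets (59.3%) went the same way, against 55.3% of all.

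**Figure D4:**
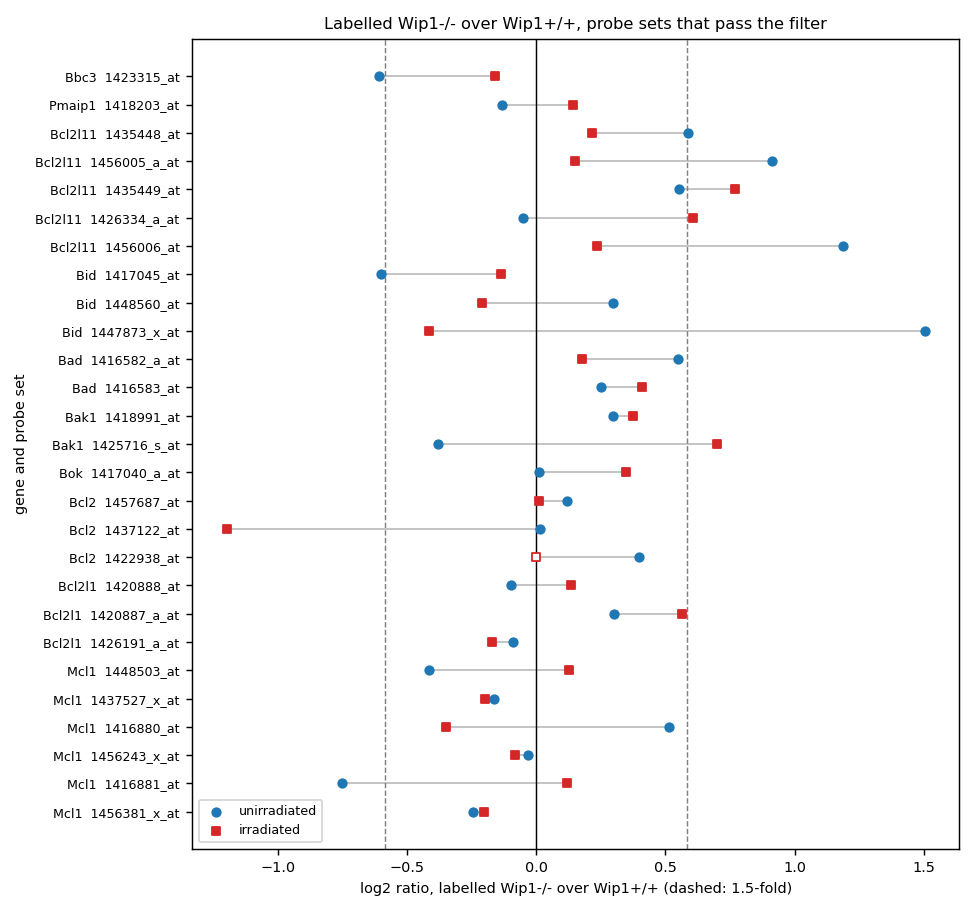
Log2 ratio of signal on the array labelled Wip1-/- over that labelled Wip1+/+ for each of the 27 probe sets that pass the filter, with blue circles for unirradiated and red squares for irradiated arrays. The open symbol is a pair with both arrays under the floor, and dashed lines mark 1.5-fold. All 5 Bcl2l11 squares lie to the right of 0, from 0.15 to 0.77.

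Markers of macrophages moved with the genotype labels. Of 10 markers 8 passed the filter, and all 8 were lower with the mutant label in both states. Among the 8, Fcgr3 passed only through its Wip1+/+ signal, 186 and 195. It was under the floor with the mutant label, at 33.0 and 27.2, so it could only come out lower. Their summed signal, over all 10, was 8242 at 0 h and 8328 at 4 h in Wip1+/+ cells, and 2049 and 1784 with the mutant label. Lyz2, lysozyme, was the brightest, with log2 ratios of -2.33 without and -2.89 after radiation, and Ctss, a lysosomal protease, had -3.41 and -2.87. Cd68 had -1.81 and -1.53, Adgre1 -1.98 and -1.23, and Ptprc -0.55 and -1.76. The last ratio of Ptprc rested on a signal of 49.9, near the floor of 46.5. Itgam and Aif1 were under the floor on all 4 arrays. Summed epithelial signal was 871 and 780, then 1184 and 1316, and summed endothelial signal 506 and 499.5, then 421 and 372. Of the other marker lists, Lum of fibroblasts had a log2 ratio of -1.82 without radiation, Kdr of endothelium 1.03, and Emcn -2.19 without and -1.05 after radiation. Lum did not stand for its list: without radiation 6 of 10 fibroblast markers were higher with the mutant label and 4 lower, with a median of 0.55. In bulk RNA, fewer cells of a type and less RNA per cell cannot be told apart. The part of these cells in the genotype ratios of BCL2 family genes was not tested.

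The irradiation log2 ratio with the mutant label minus that in Wip1+/+ cells was 0.45 for Bbc3 and 0.28 for Pmaip1. The SD between probe sets of one gene was 0.71 for this quantity, so neither exceeded it. Of 27 probe sets 8 (29.6%) were at least 1.5-fold apart, against 36.3% of all.

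Other genes of the pathway came from 6 lists with 49 genes, of which 40 had a probe set and 34 passed the filter with their brightest. In Wip1+/+ cells 4 were at least 1.5-fold higher after irradiation and 2 lower, against 5.6% and 5.11% of 11543 genes. The 4, named after their values were seen, were Apaf1, the core of the apoptosome (1.80-fold), Casp9, the caspase it activates (1.54-fold), Endog, a mitochondrial nuclease (1.51-fold), and Fbxw7, a ubiquitin ligase subunit that targets Mcl-1 (a log2 ratio of 0.59). Apaf1 read 1108 and 1988, and its other probe set 301.5 and 595. With the mutant label these disagreed, at 1642 and 1460 for the first and 313 and 550 for the other. A second probe set of Casp9 was lower (log2 ratio -0.44), and so was a second of Endog (-0.19).

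With the mutant label 5 of the 34 were at least 1.5-fold higher and 6 lower, against 15.5% and 15.3% of all genes. Past 2-fold were Bcl2l2, the anti-death protein Bcl-w, 2.30-fold higher, Fbxw7, 2.02-fold higher, Vdac1, the channel of the outer mitochondrial membrane, 2.08-fold lower, and Hrk, a BH3-only protein of neurons, 2.56-fold lower. Bcl2l2 read 804 and 908 in Wip1+/+ cells but 337 and 776 with the mutant label, and of its other probe sets 2 passed the filter. With the mutant label 1 of them was at least 1.32-fold lower after irradiation, and the other had a log2 ratio of -0.01. The only other probe set of Fbxw7 was level with that label, at 422 and 416 (log2 ratio -0.02). The brightest of Vdac1 read 26512.5 on the unirradiated array with the mutant label against 12722 to 15151 on the others, and another probe set of Vdac1 had a log2 ratio of 0.98. Hrk was dim and lower in both genotypes: it read 108 and 54.1 in Wip1+/+ cells, which is 2.00-fold lower, and 147 and 57.4 with the mutant label.

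Between genotype labels the same 34 genes gave 7 at least 1.5-fold higher and 2 lower without radiation, against 16.6% and 16.3% of all genes. After irradiation there were 2 higher and 2 lower, against 6.6% and 7.95%. Bcl2l2 was the only one of them past 2-fold, at 2.39-fold lower on the unirradiated array labelled Wip1-/-. Foxo3, a transcription factor known to activate Bcl2l11 and named after its values were seen, had log2 ratios of 0.88 and 0.40 without and after radiation, while the only other of its probe sets to pass the filter had -0.62 and -0.03.

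The 5 genes whose pattern over the 4 arrays was nearest to that of Bbc3 were Dnmt3a, Thap2, Tcf12, Angel2 and Trp53inp1. The measure was the root mean square distance of log2 signals centred on each probe set's own mean, over 4 arrays and 20323 probe sets. The distances ran from 0.02 for Dnmt3a to 0.05 for Trp53inp1. Trp53inp1, the brightest of them, read 2573 and 4471 in Wip1+/+ cells and 1858 and 4070 with the mutant label. Such distances over 4 arrays, taken from so many probe sets, are a description only.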

How the data were processed

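RNA of 4 samples was hybridized to 1 array each. The authors deposited linear signal intensity, 1 value per probe set. The submitters' processing notes name GCOS, and further settings are not given here. The mean of every array after trimming 2% at each end was 500, so the values were used without further scaling. Probe sets were named by the platform annotation: of 45037 that were not controls, 34945 had 1 symbol, 932 several and 9160 were unlisted, and the last 2 kinds were left out. All 30 of the family matched their RefSeq gene identifier. Values under 46.5, the 40th percentile, were set to that floor before log2, and a fold against the floor is a bound. The filter was the median of probe set means, 67.98, and 20323 probe sets passed. Comparisons were log2 ratios between 2 arrays, with no test; called means at least 1.5-fold. Alternatives are quantile normalization, cyclic loess, scaling to the median of the brighter probe sets, other floors and filters, and other choices of probe sets. Functions were tested on simulated data. R 4.3.3 with limma 3.58.1 and Python 3.11.15 were used.

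All members' probe sets that pass the filter are named. Genes of the other lists are named where the brightest probe set was 2-fold or more apart and above the floor on both arrays of a ratio, at most 4 per list and comparison. Others were picked after their values were seen or, for defining markers, to show their level. Lists also held lymphocyte markers, of which 0 of 3 passed the filter, and epithelial and endothelial markers, of which 3 of 6 and 3 of 5 did. Probe sets under the filter are given by range or signal. The members and lists were chosen with earlier results of these data known, and the brightness classes after seeing the data.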

Additional observations from a re-analysis of the deposited data

Results flagged for a closer look

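In 7 probe sets the irradiation ratio lay above 1 with one genotype label and below 1 with the other, with the log2 ratios at least 1.5-fold apart. The difference, cells labelled Wip1-/- minus Wip1+/+, was not tested, since each ratio rests on 2 arrays. For Bcl2l11 it was 0.66 with 1426334_a_at, -0.76 with 1456005_a_at and -0.95 with 1456006_at, so the probe sets of this gene were opposed. For Mcl1 1416880_at it was -0.86, for Bak1 1425716_s_at 1.08, for Bcl2 1437122_at -1.21 and for Bid 1447873_x_at -1.92. These are 25.9% of the 27 probe sets, and 24.8% of all 20323 met the same condition. Of the 7, 5 had a mean signal under 200.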

How the results depend on the processing

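No paired analysis was possible because each group held 1 array. Over the alternatives run, the median of the family's log2 ratios lay between 0.01 and 0.06 for irradiation of Wip1+/+ cells, 0.03 and 0.18 with the mutant label, -0.04 and 0.18 for unirradiated genotypes, 0.07 and 0.14 for irradiated genotypes, and -0.02 and 0.25 for the response difference. The median of unirradiated genotypes, 0.01, turned to -0.01 with a filter at the 67th percentile and -0.04 with 1 probe set per gene, and that of the response difference, 0.04, to -0.02 with scaling to the median of the brighter probe sets. Counts of family probe sets at least 1.5-fold apart were less stable. With the filter at the 67th percentile, which leaves 20 probe sets, they were 1 in place of 4 for irradiation of Wip1+/+ cells, 2 in place of 5 with the mutant label, 0 in place of 4 for irradiated genotypes and 3 in place of 8 for the response difference. The shares of all probe sets under that filter were 4.10% in place of 12.5%, 25.6% in place of 32.3%, 7.29% in place of 15.8% and 28.0% in place of 36.3%. With 1 probe set per gene, 10 in all, they were 1, 1, 0 and 0, and 3 in place of 7 for unirradiated genotypes, against shares of all genes of 10.7%, 30.8%, 14.6%, 33.4% and 32.9%. Without probe sets ending in _x_at or _s_at, irradiation of Wip1+/+ cells gave 2. The same scaling gave 8 in place of 5 for irradiation with the mutant label. Taking both Wip1+/+ arrays as reference for the irradiated mutant array gave 3 in place of 4, as 1 higher and 2 lower in place of 3 and 1, against 13.5% of all. Bak1 1425716_s_at then had a log2 ratio of 0.26 in place of 0.70 and Bcl2l11 1426334_a_at 0.51 in place of 0.61. In 675 single values under 5 alternatives, 0 of those past 1.5-fold changed sign. Among the smaller ones, 6 changed sign for irradiation of Wip1+/+ cells, 3 for unirradiated genotypes and 3 for the response difference. The lack of sign changes past 1.5-fold was in part set in advance. Another floor or an offset keeps the order of the signals in a ratio, and the scaling shifts the ratios of a comparison nearly alike. Signal close to background limits the dim probe sets, and having 4 arrays in all limits every value.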
